A study of Mus musculus with 90 samples.

Results

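Smooth muscle contractile genes encode the proteins with which the muscle of vessels, gut and uterus contracts. The 10 genes described here are Acta2 and Actg2 (the smooth muscle actins), Myh11 and Mylk (the myosin heavy chain and the kinase that switches it on), Tagln, Cnn1 and Smtn (actin-binding proteins), Lmod1 (an actin nucleator), Synpo2 (an actin-bundling protein) and Des (an intermediate filament protein). They were taken by Entrez Gene identifier from a table of 20414 genes, in which all 10 are listed, and were followed over all 90 libraries. The libraries come from 15 tissues of female C57BL/6 mice (C57BL/6J by the methods) in estrus or diestrus, with 3 libraries per tissue and phase. The tissues are aorta, vein, stomach, duodenum, uterus, ovary, white adipose tissue (WAT), brown adipose tissue (BAT), heart, skeletal muscle, kidney, spleen, liver, cerebrum and hypothalamus. The mice carried no transgene or treatment that the labels name, were 10 weeks old by the labels, and their phase was read from vaginal smears stained with methylene blue. The publication gives a younger age than the labels do. Each value is an FPKM, in which the fragments of a gene are divided by transcript length and by library size. The values of a library do not add up to a common total. They sum to 353706 FPKM in cerebrum diestrus 1 and to 623534 FPKM in stomach estrus 2, the lowest and highest sums. Levels of different libraries are therefore not on exactly the same scale. The order of some tissues changes on a TPM scale, which sets all sums equal.

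Smooth muscle contracts when calcium, bound to calmodulin, activates the myosin light chain kinase, which phosphorylates the regulatory light chain of myosin so that myosin pulls on actin filaments. Vessels are rich in alpha actin (Acta2) and gut muscle in gamma actin (Actg2), and calponin, transgelin, smoothelin and leiomodin sit on the thin filament. Many of these genes are read by serum response factor with its partner myocardin through a short DNA element called the CArG box. Desmin and synaptopodin 2 also belong to the Z-discs of striated muscle. In bulk tissue, fewer muscle cells and less RNA per muscle cell cannot be told apart.

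The CArG box was looked for in the promoters, since it is the shared element through which these genes are known to be read. RefSeq windows of 300 bases, 250 before and 50 after the start site (GRCm38.p6), were at hand for 7 of the 10 genes. The start site of a window need not be the outermost start of the gene. The Mylk window, chr16:34784700-34784999, lies inside the gene, whose span begins at 34745199. The Acta2 window, chr19:34255324-34255623, lies mostly inside the gene, whose span ends at 34255585. Distances below are counted from the start site of the window. The windows of Tagln, Actg2 and Myh11 were not used here. No window of the 7 held an exact box, which was found in 535 of 32851 windows of all genes, or 1.63%, and in a window of 488 of 27025 genes, or 1.81%. The motif reads the same on both strands, and no match says only that these letters are not in this window. With 1 mismatched base allowed upstream of the start, 2 of the 7 windows held a box, those of Acta2 and Lmod1, against 18.6% of all windows, a search added after the exact one. Both Acta2 boxes and both Lmod1 boxes are printed with 10 bases on each side, 5′ to 3′ on the strand of the gene, and capitals mark the box. The exact box of Myl9, the regulatory light chain, is shown for comparison.
Acta2, minus strand, chr19:34255438-34255467, box starting 84 bases upstream: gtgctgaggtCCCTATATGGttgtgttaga
Acta2, minus strand, chr19:34255388-34255417, box starting 34 bases upstream: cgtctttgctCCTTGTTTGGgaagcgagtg
Lmod1, plus strand, chr1:135324614-135324643, box starting 189 bases upstream: gcccccttgtCTTTAAAAGGctaaactgct
Lmod1, plus strand, chr1:135324639-135324668, box starting 164 bases upstream: ctgctctgtaCTAAATTTGGtcacgcagcg
Myl9, plus strand, chr2:156775293-156775322, box starting 161 bases upstream: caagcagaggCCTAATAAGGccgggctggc

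Some libraries stood apart, and this touches most values that follow. The number of reads behind a library, worked out roughly from the steps in the low values of 931 short genes, was 9.34M to 18.85M in 89 libraries and 0.056M in BAT estrus 3, which lists 12048 genes at 0. Of 30 markers of the labelled tissues, 29 had their highest median in the tissue they mark. The exception was Nr2f2, a venous marker for which ovary had the highest median and vein ranked 4. Duodenum estrus 1 went against its label: 7 genes of gastric epithelium (Atp4a, Atp4b, Cblif, Muc5ac, Gkn1, Gkn2 and Tff1) summed to 52192 FPKM there and to 0.41 to 25.8 FPKM in the other 5 duodenum libraries, while the stomach libraries held 32281 to 54931 FPKM. Its 5 enterocyte genes summed to 3572 FPKM, against 5585 to 14806 FPKM in the other 5. Aorta estrus 1 had the lowest value of all 7 cardiomyocyte genes, which summed to 346 FPKM against 2485 to 4985 FPKM in the other aortas, and its 5 white adipocyte genes summed to 273 FPKM against 2249 to 2590 FPKM. WAT estrus 1 had the highest value of all 6 fibroblast genes, which summed to 2425 FPKM against 451 to 989 FPKM. Many results that rest on these libraries are given with and without them. The means and SDs of a tissue cover all 6 of its libraries.

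The summed FPKM of the 10 genes ordered the tissues broadly. By the median of 6 libraries it was 2616 FPKM in vein, 1946 in aorta, 1816 in uterus, 1404 in stomach, 764 in ovary, 660 in duodenum and 266 in WAT. Heart, at 1196, and skeletal muscle, at 1383, came to similar sums through desmin, which made up 79.6% and 82.7% of them. The sum was 145 FPKM in BAT, 135 in spleen, 120 in kidney, 28.4 in liver, 21.3 in hypothalamus and 18.8 in cerebrum. The spread between libraries was wide in most tissues with smooth muscle: the highest library exceeded the lowest by 20.8-fold in WAT, 19.9-fold in stomach, 8.94-fold in aorta, 8.45-fold in duodenum, 4.72-fold in uterus and 3.02-fold in vein. In ovary the highest library exceeded the lowest by only 1.57-fold. In heart, skeletal muscle and liver it exceeded the lowest by no more than 1.14-fold.

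**Figure D1:**
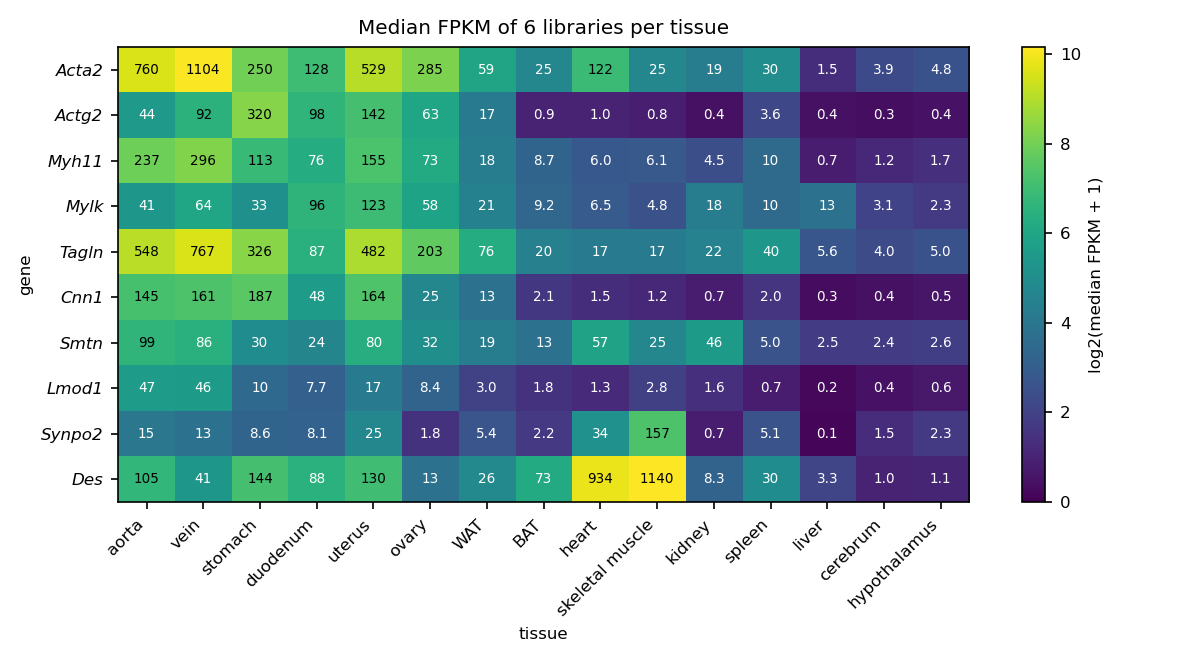
Median FPKM of 6 libraries for each of the 10 contractile genes (rows) in each of 15 tissues (columns), with colour on the log2(FPKM + 1) scale. Acta2 and Tagln are highest in vein (1104 and 767 FPKM), Actg2 and Cnn1 in stomach (320 and 187 FPKM), and Des and Synpo2 in skeletal muscle (1140 and 157 FPKM).

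The alpha actin Acta2 had its highest mean in aorta, at 1994 ± 2911 FPKM (SD, n = 6), and next in vein, at 1176 ± 508. The aorta libraries ran from 669 FPKM through a median of 760 to 7925 FPKM, and vein from 643 through 1104 to 2030 FPKM. In estrus 1, 2 and 3 of aorta Acta2 was 7925, 669 and 699 FPKM, and in diestrus 1152, 781 and 739 FPKM, so that 1 aorta lay far above the other 5. Without the libraries numbered 1, vein came first. Uterus followed with 688 ± 432 FPKM, stomach with 460 ± 575, ovary with 298 ± 48.4, WAT with 158 ± 258, duodenum with 155 ± 134 and heart with 117 ± 31.8. The ranges of neighbours in this order overlapped from aorta down to heart, and heart stood clear of spleen, at 31.9 ± 9.08 FPKM. BAT, skeletal muscle and kidney lay between 18.1 and 25.5 FPKM on average. Acta2 was lowest in hypothalamus (4.57 ± 0.889 FPKM), cerebrum (3.81 ± 0.847) and liver (1.63 ± 0.477), and liver did not overlap with cerebrum.

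The gamma actin Actg2 was highest in stomach, at 476 ± 556 FPKM (SD, n = 6), and next in uterus, at 334 ± 370. In stomach its values were 1566, 65.6 and 442 FPKM in estrus 1, 2 and 3 and 435, 139 and 205 FPKM in diestrus. Estrus 1 was the highest and estrus 2 the lowest library, so the 2 phases overlapped. Duodenum had 151 ± 180 FPKM, vein 102 ± 42.4, aorta 77.3 ± 84, ovary 66.4 ± 13.5 and WAT 64.2 ± 124, all overlapping with their neighbours. Without the libraries numbered 1, vein came next after uterus. WAT stood clear of spleen at 3.85 ± 1.15 FPKM, and spleen of the remaining 7 tissues, which averaged 0.3 to 1.04 FPKM. Acta2, by contrast, stayed above 1 FPKM in every library of every tissue.

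The myosin heavy chain Myh11 followed the order of Acta2 at the top, with 475 ± 586 FPKM (SD, n = 6) in aorta, 320 ± 127 in vein, 234 ± 156 in uterus and 206 ± 239 in stomach. Its aorta values were 1669, 225 and 249 FPKM in estrus and 316, 203 and 191 FPKM in diestrus, again with estrus 1 far above the others. Without the libraries numbered 1, vein came first. Duodenum had 113 ± 119 FPKM, ovary 78.7 ± 19.5 and WAT 74.8 ± 138, and spleen, BAT, skeletal muscle, heart and kidney averaged 4.47 to 10.8 FPKM. Kidney stood clear of hypothalamus (1.64 ± 0.275 FPKM), cerebrum stood clear of liver (0.688 ± 0.0778 FPKM), and neighbours elsewhere in the order overlapped.

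Mylk, whose row also covers telokin, a short product of the same gene, differed from the other contractile genes in its order. It was highest in uterus, at 135 ± 48.2 FPKM (SD, n = 6), with values of 198, 98.9 and 121 FPKM in estrus and 124, 80.3 and 190 FPKM in diestrus. Estrus 1 and diestrus 3 were the highest, and the phases overlapped. Duodenum came second at 102 ± 32.6 FPKM, ahead of aorta (72.6 ± 81.2), vein (70.6 ± 25.3), ovary (62 ± 10), stomach (54.9 ± 59.1) and WAT (36 ± 37.6). In liver it was 13.2 ± 0.797 FPKM, the highest mean among the 10 genes there, and made up 48.4% of their sum, and in kidney it was 17.7 ± 3.53 FPKM. Spleen, at 11.5 ± 2.62 FPKM, and BAT, at 8.49 ± 3.97, came next. Heart (6.68 ± 0.61 FPKM) stood clear of skeletal muscle (4.46 ± 1.14), and cerebrum (3.36 ± 1.01) of hypothalamus (2.31 ± 0.28).

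Transgelin (Tagln) reached 1241 ± 1697 FPKM (SD, n = 6) in aorta, 890 ± 395 in vein, 760 ± 572 in uterus and 505 ± 525 in stomach. In aorta it was 4701, 544 and 553 FPKM in estrus and 716, 469 and 463 FPKM in diestrus, and without the libraries numbered 1 vein came first. WAT, at 257 ± 456 FPKM, came next through its estrus 1 library of 1185 FPKM, with the other WAT libraries at 38 to 119 FPKM. Ovary had 214 ± 23.8 FPKM and duodenum 150 ± 192. Spleen, at 45.3 ± 10.6 FPKM, stood clear of kidney (22.1 ± 5.76), and skeletal muscle (17 ± 2.23) of liver (5.78 ± 0.9).

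Calponin 1 (Cnn1) was highest on average in aorta, at 338 ± 470 FPKM (SD, n = 6), with 1296, 125 and 128 FPKM in estrus and 193, 131 and 158 FPKM in diestrus. The 5 aortas other than estrus 1 lay within 125 to 193 FPKM, around the stomach median of 187 FPKM. Stomach had 271 ± 275 FPKM, uterus 220 ± 143, vein 178 ± 75.8, duodenum 87.4 ± 117, WAT 41.2 ± 69.8 and ovary 31 ± 16. Without the libraries numbered 1, uterus came first. Outside these tissues Cnn1 was low: ovary stood clear of BAT at 2.29 ± 1.55 FPKM, and the remaining tissues averaged 0.31 to 2 FPKM.

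Smoothelin (Smtn) reached further into heart and kidney than the other actin-binding genes. Aorta led with 148 ± 127 FPKM (SD, n = 6), and its libraries read 407, 105 and 92.6 FPKM in estrus and 114, 91.7 and 78.8 FPKM in diestrus. Uterus (95.2 ± 56.1 FPKM) and vein (91.2 ± 31.1) came next, and then heart (57.3 ± 4.49) and kidney (45 ± 4.79), ahead of stomach (41.1 ± 33.6), WAT (35.3 ± 43), ovary (32.4 ± 7.1) and duodenum (26.7 ± 20.7). All these neighbours overlapped. Skeletal muscle, at 24.7 ± 2.06 FPKM, stood clear of BAT (14.6 ± 4.44), BAT of spleen (5.46 ± 1.65), and spleen of the brain regions and liver, which averaged 2.44 to 2.62 FPKM.

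Lmod1 had the lowest top level of the 10 genes and was highest in the vessels. It had 74.6 ± 70 FPKM (SD, n = 6) in aorta and 50.1 ± 22.8 in vein, and then 20.7 ± 9.42 in uterus, 14.8 ± 13.6 in stomach, 8.94 ± 2.79 in ovary, 8.84 ± 6.47 in duodenum and 8.39 ± 12.8 in WAT. In aorta the values were 217, 46 and 48.5 FPKM in estrus and 57.8, 42.4 and 36.2 FPKM in diestrus. Its aorta libraries all exceeded its uterus libraries, of which the highest was 32.5 FPKM. Without the libraries numbered 1, vein came first. Elsewhere the mean was at most 3.52 FPKM, in skeletal muscle.

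Synpo2 and Des followed another order, with striated muscle on top. Synpo2 was 154 ± 17.1 FPKM (SD, n = 6) in skeletal muscle, with 171, 124 and 163 FPKM in estrus and 167, 146 and 152 FPKM in diestrus, and stood clear of heart at 33.1 ± 2.87 FPKM. Uterus (30.6 ± 20 FPKM) and aorta (30.2 ± 35.8) overlapped with heart. Ovary, at 2.75 ± 2.64 FPKM, held little Synpo2 beside its Acta2. Des was 1140 ± 54.6 FPKM in skeletal muscle, with 1186, 1085 and 1081 FPKM in estrus and 1163, 1117 and 1211 FPKM in diestrus, and 932 ± 30.6 FPKM in heart. Skeletal muscle, heart and stomach (221 ± 236 FPKM) did not overlap in Des. Below them came uterus (195 ± 142), duodenum (121 ± 118), aorta (97 ± 37.1), BAT (85.1 ± 50.9), WAT (49.8 ± 63.9), vein (41.3 ± 12.4), spleen (30 ± 3.12) and ovary (18.2 ± 14). In BAT, Des was highest in diestrus 3, at 186 FPKM against 45.6 to 76.9 FPKM in the other libraries, and the 8 skeletal muscle fibre genes summed to 5768 FPKM in that library against 30.6 to 1570 FPKM in the others. Their part in the BAT value was not tested.

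In 5 tissues the library estrus 1 carried the highest values of nearly all contractile genes. It was the highest of the 6 libraries for all 10 genes in stomach, duodenum, uterus and WAT and for 9 of 10 in aorta, where Des was lowest instead. Over all genes whose mean reached 1 FPKM, estrus 1 was the highest library for 20.2% in stomach, 35.4% in duodenum, 15.4% in uterus, 39.4% in WAT and 43.6% in aorta. Estrus 1 exceeded the median of the other 5 libraries by a median over the 10 genes of 13.2-fold in WAT, 7.31-fold in stomach, 6.67-fold in aorta, 3.76-fold in duodenum and 3.01-fold in uterus. The median over all genes lay between 0.877-fold, in uterus, and 1.09-fold, in aorta. The pattern was absent in vein, where diestrus 2 was highest for all 10 genes, and in ovary, where estrus 3 was. The labels do not say whether the libraries numbered 1 came from 1 mouse.

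Single genes show how far these libraries lay apart. In WAT, Actg2 was 316 FPKM in estrus 1 and 6.43 to 22.7 FPKM in the other 5, a 21.1-fold excess over their median, and Synpo2 had the smallest excess, 5.8-fold. In aorta the excess was widest for Acta2, at 10.7-fold, while Des was 30.1 FPKM in estrus 1 and 86.2 to 138 FPKM elsewhere. In stomach it ran from 4.86-fold for Smtn to 9.97-fold for Acta2. In duodenum it ran from 1.65-fold for Mylk to 7.1-fold for Cnn1, and in uterus from 1.64-fold for Mylk to 8.59-fold for Actg2. Mylk was thus the gene with the smallest excess in the latter 2 tissues.

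**Figure D2:**
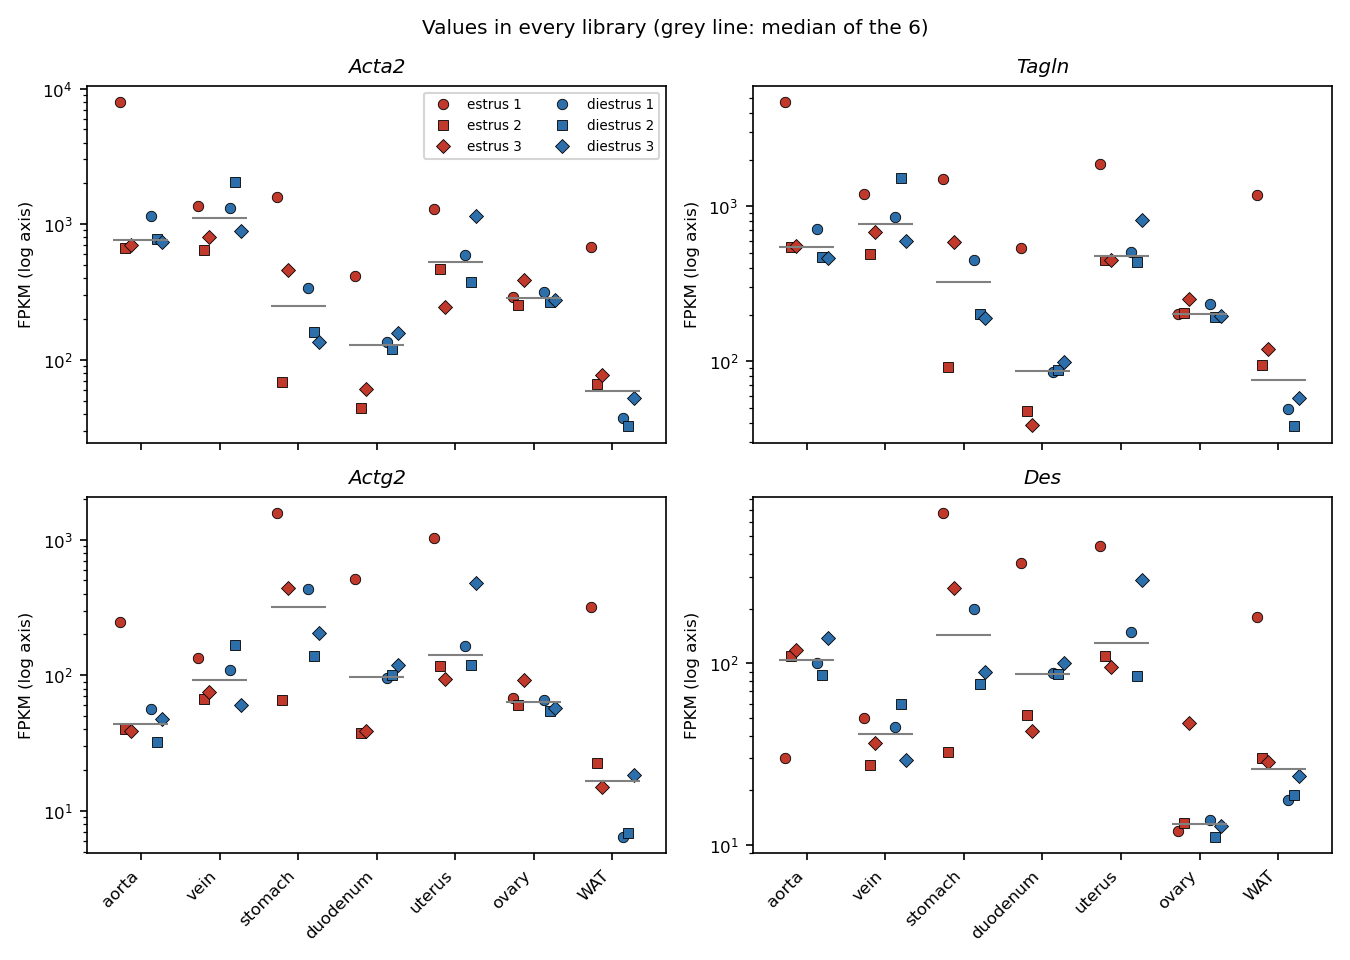
FPKM (log axis) of Acta2, Tagln, Actg2 and Des in every library of 7 tissues, with estrus in red, diestrus in blue, a marker shape per replicate number and a grey line at the median of 6. Estrus 1 is the highest library of all 4 genes in stomach, duodenum, uterus and WAT, while in aorta it is highest for Acta2 (7925 FPKM) and lowest for Des (30.1 FPKM).

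Levels of other cell types moved in the same libraries. Beside the excess in aorta estrus 1, the low sums of cardiomyocyte and white adipocyte genes are given with the depth, and 4 brown adipocyte genes summed to 328 FPKM against 2501 to 4811 FPKM and 4 erythroid genes to 401 FPKM against 2028 to 3926 FPKM. Desmin is also a cardiomyocyte protein, and it was lowest in the same aorta. In WAT estrus 1, the fibroblast genes were high and the 4 brown adipocyte genes summed to 4.11 FPKM against 14.4 to 102 FPKM and the 5 white adipocyte genes to 7924 FPKM against 9324 to 10679 FPKM. In stomach estrus 1 the fibroblast genes summed to 310 FPKM against 112 to 150 FPKM, with 5 of 6 genes highest there, the 5 pericyte genes to 97.2 FPKM against 22.7 to 37.1 FPKM, and the 5 genes of simple epithelium to 2840 FPKM against 3569 to 4736 FPKM, with 4 of 5 lowest there. In duodenum estrus 1 the gastric epithelial sum lay within the range of the stomach libraries. In uterus estrus 1 the fibroblast genes summed to 2434 FPKM against 415 to 1984 FPKM, with 2 of 6 highest there. In ovary estrus 3 the 5 genes of simple epithelium summed to 378 FPKM against 32.1 to 48.5 FPKM. The part of these cells in the levels of the contractile genes was not tested.

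**Figure D3:**
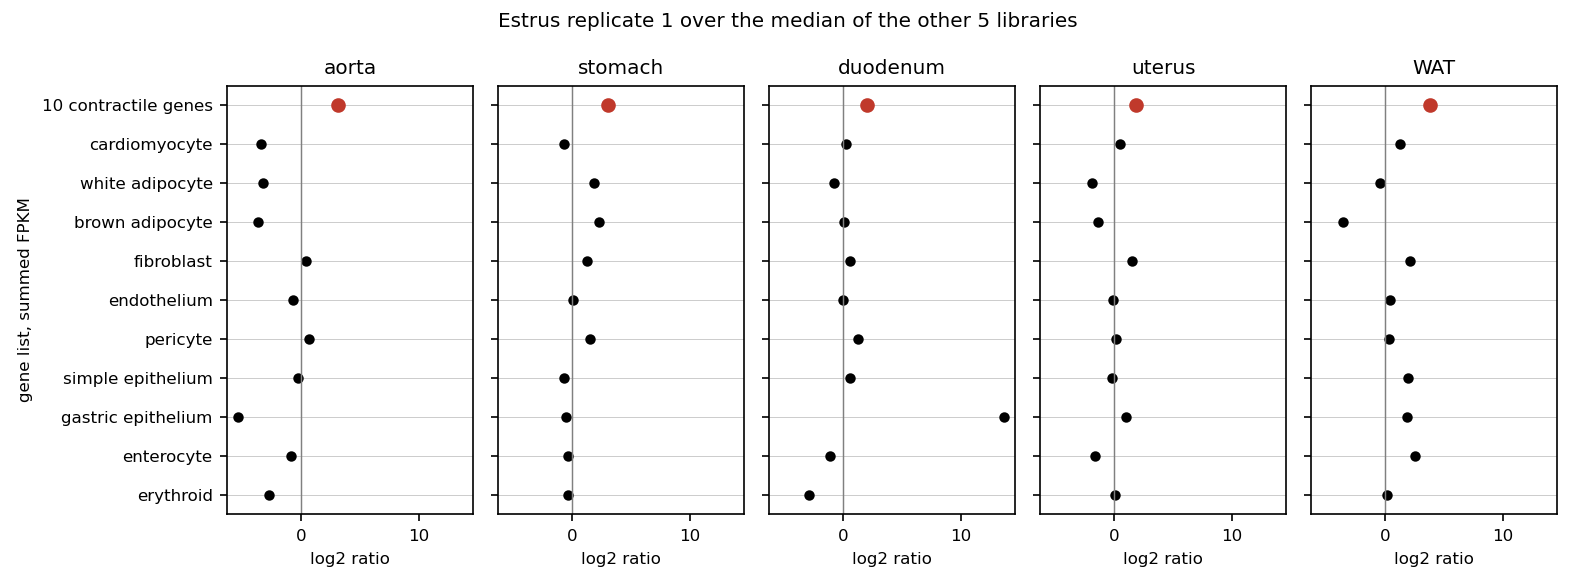
Log2 ratio of the summed FPKM of estrus replicate 1 to the median of the other 5 libraries, for the 10 contractile genes (red) and 10 marker lists of other cell types (black), in 5 tissues. The red point lies right of 0 in all 5 tissues (an excess of 8.81-fold in aorta, 8.3-fold in stomach, 4.19-fold in duodenum, 3.79-fold in uterus and 14-fold in WAT), while the cardiomyocyte, adipocyte and erythroid lists lie left of 0 in aorta.

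Genes that work with these proteins were followed through 3 lists. The 16 contractile partners include the light chains Myl9 and Myl6, the tropomyosins, caldesmon and vinculin, and estrus 1 was the highest library for all 16 in aorta, stomach, duodenum and WAT, and for 10 in uterus. Their median excess was 6.37-fold in aorta, 3.33-fold in stomach, 2.77-fold in duodenum, 2.79-fold in WAT and 1.76-fold in uterus. In aorta, Myl9 was 4169 FPKM in estrus 1 and 467 to 728 FPKM in the other 5, Myl6 was 5390 FPKM against 874 to 1282 FPKM, and Tpm1 was 1511 FPKM against 732 to 1189 FPKM. Of 16 genes of contraction control (such as phosphatase subunits, ion channels and the nitric oxide pathway), 15 were highest in aorta estrus 1, and Pln, the phospholamban gene of heart and slow muscle, was lowest there, at 8.54 FPKM against 111 to 232 FPKM. Among the regulators, Myocd, the coactivator of serum response factor, was 42.9 FPKM in aorta estrus 1 and 3.28 to 4.56 FPKM in the other aortas. Srf itself was 39.5 FPKM there against 18.6 to 21.6 FPKM, a smaller excess. In the promoter windows of the partners, an exact CArG box was found in 4 of 13 genes at hand (Fhl1, Myl6, Myl9 and Vcl), in 0 of 14 genes of contraction control and in 1 of 5 regulators, Srf.

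The balance of the 2 actins was examined as the ratio of Actg2 to Acta2 within each library, a measure that does not depend on the scaling of the library. The ratio, chosen after the values were seen, was 1.09 ± 0.247 (SD, n = 6) in stomach and 0.837 ± 0.212 in duodenum, where the 2 actins were about equally abundant. It was 0.407 ± 0.201 in uterus, 0.289 ± 0.114 in WAT, 0.222 ± 0.0175 in ovary, 0.0883 ± 0.0135 in vein and 0.0504 ± 0.0123 in aorta. In stomach the 6 libraries lay between 0.871 and 1.51, although the level of Acta2 in them ran from 69 to 1595 FPKM. In aorta they lay between 0.0313 and 0.0645, and estrus 1 was the lowest. On the log2 scale the ratio was higher in stomach than in aorta by 4.45 ± 0.20 (SE) and in uterus than in aorta by 2.94 ± 0.29, and differed by -1.51 ± 0.27 between uterus and stomach, uterus being lower. It was lower in aorta than in vein (-0.84 ± 0.18) and higher in uterus than in ovary (0.76 ± 0.25). None of these 5 pairs of tissues overlapped, and each gave p = 0.0022, the smallest that an exact two-sided permutation test of 6 against 6 allows, and an adjusted p of 0.0038 over the 30 ratio tests made. Stomach and duodenum overlapped, with a difference of 0.39 ± 0.18 (exact permutation test, p = 0.061, adjusted p = 0.079). Without estrus 1, the difference between them was 0.54 and passed the 0.05 limit. Of all exact stretches of 50 bases in the transcripts, Actg2 shared none with another gene and Acta2 shared 0.326%. Only exact matches were counted, so sharing of reads aligned with mismatches was not tested.

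**Figure D4:**
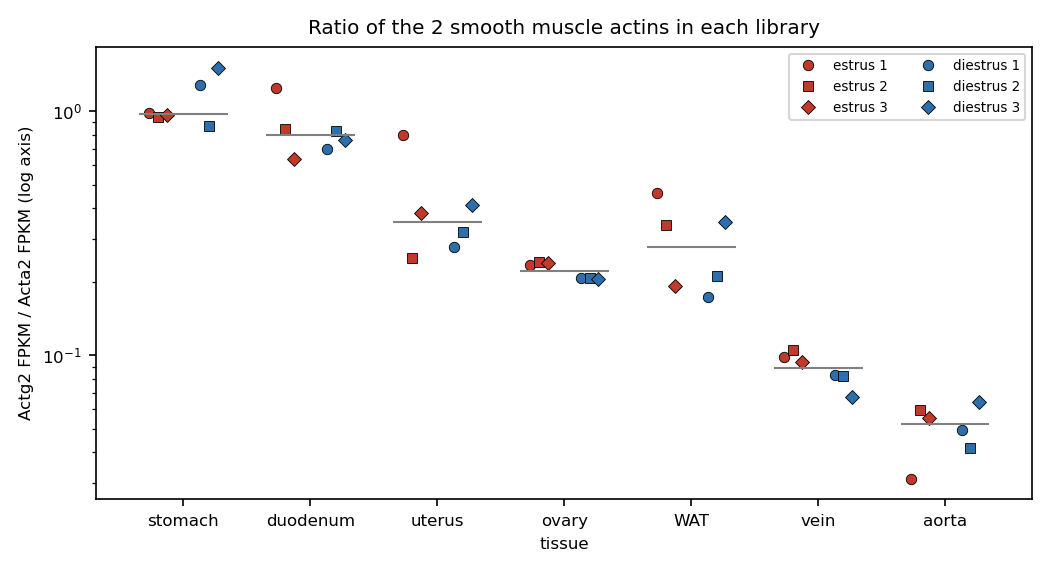
Ratio of Actg2 to Acta2 FPKM (log axis) in each library of 7 tissues, with estrus in red, diestrus in blue, a marker shape per replicate number and a grey line at the median. Stomach and duodenum libraries lie at 0.64 to 1.51, uterus at 0.251 to 0.798, ovary at 0.205 to 0.24, vein at 0.0674 to 0.105 and aorta at 0.0313 to 0.0645.

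Des, Mylk, Synpo2 and Lmod1 also changed their proportion to Acta2 between tissues. The tests of these ratios were not planned in advance either, and their adjusted p covers only the 30 tests made. Des over Acta2 was 0.791 ± 0.204 (SD, n = 6) in duodenum, 0.53 ± 0.087 in stomach, 0.282 ± 0.066 in uterus, 0.12 ± 0.0685 in aorta, 0.0575 ± 0.0315 in ovary and 0.0369 ± 0.00623 in vein. Stomach and uterus differed by -0.92 ± 0.16 (SE, uterus minus stomach, log2), uterus and ovary by 2.39 ± 0.28, stomach and aorta by 2.79 ± 0.89 and uterus and aorta by 1.87 ± 0.89, none overlapping (exact permutation test, adjusted p = 0.0038). Without the libraries estrus 1, stomach and aorta differed by 1.99 and uterus and aorta by 0.94. Stomach and duodenum differed by -0.56 ± 0.17 (exact permutation test, adjusted p = 0.0108), and by -0.47 without the libraries estrus 1. Aorta and vein differed by 1.05 ± 0.89 (exact permutation test, adjusted p = 0.27). Des over Acta2 was 0.0038 in aorta estrus 1 and 0.0868 to 0.187 in the other aortas, while the veins lay at 0.0294 to 0.0456. Without the libraries estrus 1 the difference was 1.92 and passed the limit.

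Among stomach, duodenum, uterus, ovary, WAT and the vessels, Mylk over Acta2 was highest in duodenum. It was 0.907 ± 0.426 (SD, n = 6) there, against 0.143 ± 0.0324 in stomach and 0.37 ± 0.131 in WAT. Liver (8.8 ± 3.01) and kidney (0.987 ± 0.128) lay higher, and cerebrum (0.889 ± 0.187) was close. The difference between stomach and duodenum was -2.56 ± 0.32 (SE, log2), without overlap (exact permutation test, adjusted p = 0.0038). Without the libraries estrus 1 this difference was -2.71. The ratio was 0.241 ± 0.126 in uterus, 0.209 ± 0.0202 in ovary, 0.062 ± 0.00802 in vein and 0.0465 ± 0.0103 in aorta. Uterus exceeded aorta by 2.28 ± 0.28 and stomach exceeded aorta by 1.62 ± 0.19, both without overlap (exact permutation test, adjusted p = 0.0038). Uterus and ovary differed by only 0.09 ± 0.25 (exact permutation test, adjusted p = 0.88), and leaving out estrus 3 turned the sign. Synpo2 over Acta2 was higher in uterus than in ovary by 2.53 ± 0.34 and than in aorta by 1.22 ± 0.19, and lower in stomach than in duodenum (-0.96 ± 0.17), each without overlap (exact permutation test, adjusted p = 0.0038). Among the ratios tested, Lmod1 over Acta2 moved least, and only stomach and duodenum were without overlap (-0.65 ± 0.19, exact permutation test, adjusted p = 0.0038). It was also lower in uterus than in aorta (-0.64 ± 0.24, exact permutation test, adjusted p = 0.038), with overlap. Without the libraries estrus 1, stomach and duodenum differed by -0.97 in Synpo2 over Acta2 and by -0.57 in Lmod1 over Acta2. Myh11, Tagln, Cnn1 and Smtn over Acta2 were not tested. Myh11 over Acta2 was 0.263 in ovary, 0.276 in vein, 0.282 in aorta, 0.354 in uterus, 0.47 in stomach and 0.692 in duodenum.

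Levels were then tested between 9 pairs of tissues with limma on log2(FPKM + 1), over the 12 libraries of a pair with phase as a covariate, and a gene was called at an adjusted p of at most 0.05 and a log2 difference of at least 1. Over all genes, the median difference of a pair lay between -0.15 and 0.46. Shares of all genes called belong to the fit of all 12 libraries of a pair. Counts with a library left out, with a block or in one fit of all libraries have no such share beside them. Those counts describe stability only. Uterus against ovary gave the most calls. Of the 10 contractile genes 9 were higher in uterus, against 19% of all genes called in either direction, and the median difference of the 10 was 1.47, against -0.15 for all genes. Des was higher by 3.28 ± 0.45 (SE, log2, limma adjusted p = 0.00011), Synpo2 by 2.99 ± 0.49 and Cnn1 by 2.65 ± 0.41. Acta2 missed the limit at 0.97 ± 0.36 (limma, adjusted p = 0.052). Without uterus estrus 1, 7 genes were called, and Lmod1 and Mylk were lost.

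Between the 2 fat depots, 7 of 10 contractile genes were higher in WAT than in BAT, against 22.2% of all genes called. Actg2 differed most, by 3.57 ± 0.75 (SE, log2, limma adjusted p = 0.0021), followed by Cnn1 (2.76 ± 0.71), Tagln (2.38 ± 0.71), Mylk (1.74 ± 0.51), Myh11 (1.73 ± 0.66), Acta2 (1.63 ± 0.59) and Synpo2 (1.27 ± 0.43). Des went the other way without being called (-1.19 ± 0.49, limma adjusted p = 0.065). Without WAT estrus 1 the count was again 7, with Synpo2 lost and Des called as lower in WAT (-1.65 ± 0.31, limma adjusted p = 0.0017). Without the shallow library BAT estrus 3, 6 were called, and Acta2 was lost.

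Between vessels and visceral muscle, the shares of contractile genes called lay near the shares of all genes called. Against aorta, stomach was higher in Actg2 (2.32 ± 0.71, SE, log2) and lower in Lmod1 (-2.34 ± 0.53), Acta2 (-2.11 ± 0.77) and Smtn (-1.89 ± 0.49), 4 of 10 contractile genes, with 37% of all genes called (limma). Without aorta estrus 1, Acta2 was lost, and without stomach estrus 1, Myh11 and Synpo2 were called as lower in stomach too. With the replicate number as a block, 7 were called. Against aorta, uterus was higher in Actg2 (1.92 ± 0.64) and Mylk (1.26 ± 0.44) and lower in Lmod1 (-1.59 ± 0.42), 3 of 10, with 32.3% of all genes called (limma). Without uterus estrus 1, Mylk was lost. Uterus was higher than stomach in Mylk (1.73 ± 0.51) and Smtn (1.32 ± 0.52), 2 of 10, with 28.5% of all genes called (limma). That count was 6 without stomach estrus 1 and 1, Mylk, without uterus estrus 1.

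Aorta was compared with vein, and stomach with duodenum. Aorta exceeded vein in Des by 1.13 ± 0.33 (SE, log2, limma adjusted p = 0.023), the only call among the 10, with 11% of all genes called. With the replicate number within a phase as a block, 0 were called. Without aorta estrus 1 this difference was 1.42 ± 0.20, and Actg2 was called as lower in aorta (-1.17 ± 0.26, limma adjusted p = 0.003). The aortas also held cardiomyocyte genes, as given above, and their part in the Des difference was not tested. Stomach was lower than duodenum in Mylk (-1.35 ± 0.51, limma adjusted p = 0.045), 1 of 10, with 24.1% of all genes called. Without duodenum estrus 1 that call was lost (-1.24), and Actg2 (2.05 ± 0.72), Cnn1 (2.24 ± 0.68) and Tagln (2.30 ± 0.64) were called as higher in stomach. The count was 4 with the replicate number as a block, and 5 with the number within a phase as a block or in one fit of all libraries.

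Heart and skeletal muscle differed in 3 of the 9 contractile genes tested, with 28.3% of all genes called. Acta2 was higher in heart by 2.24 ± 0.13 (SE, log2, limma adjusted p = 4.23e-09) and Smtn by 1.18 ± 0.05, and Synpo2 was lower in heart (-2.18 ± 0.08). The Acta2 values were 83.6, 138 and 79.7 FPKM in heart in estrus and 135, 158 and 108 FPKM in diestrus, all above the skeletal muscle libraries at 17.6 to 27.9 FPKM. Des differed by -0.29 ± 0.05, below the size limit. Hypothalamus and cerebrum differed in 0 of the 7 contractile genes tested by these limits, with 8.98% of all genes called. At an adjusted p alone, Myh11 was higher in hypothalamus (0.28 ± 0.08, limma adjusted p = 0.0083) and Mylk lower (-0.38 ± 0.12, limma adjusted p = 0.015).

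Estrus and diestrus were compared within each tissue. Of the 150 pairs of a contractile gene and a tissue, 132 had a mean of at least 1 FPKM and were tested, and limma called 0 of them at an adjusted p of at most 0.05. An unadjusted p under 0.05 was found for 14. Over all genes, such a p was found for 2.87% to 20.8% of the genes of a tissue, and the highest share was that of skeletal muscle, where 3 of the 14 lay. The lowest adjusted p was 0.098, for Mylk in skeletal muscle. Over all genes, 0.0187% were called in skeletal muscle, 0.00798% in spleen and 0% in the other tissues, so the absence of calls held for nearly all genes. With 3 libraries against 3, an exact permutation test of 1 gene cannot go below 0.1.

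In 5 tissues the phase difference depended on the library estrus 1, in sign for aorta and stomach and in size for duodenum, uterus and WAT. The median log2 difference of the 10 genes, estrus minus diestrus, was 0.80 in aorta, 0.72 in stomach, -0.14 in duodenum, -0.11 in uterus and 1.77 in WAT. Over all genes the median lay between -0.16, in duodenum, and 0.06, in WAT. Without estrus 1 the medians of the 10 genes were -0.02 in aorta, -0.14 in stomach, -1.12 in duodenum, -0.77 in uterus and 0.76 in WAT. WAT alone of these 5 kept a median above 0. Other libraries moved the medians as well: it was 0.35 in duodenum without estrus 2 and 0.32 in uterus without estrus 3. In vein the median was -0.42, and -0.70 without estrus 1, with all 10 genes below 0 in both, while 33.0% of all genes were above 0. Without diestrus 2 the vein median was -0.11. In ovary it was 0.30, and 0.32 without estrus 1, with all 10 above 0 in both, but -0.02 without estrus 3.

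**Figure D5:**
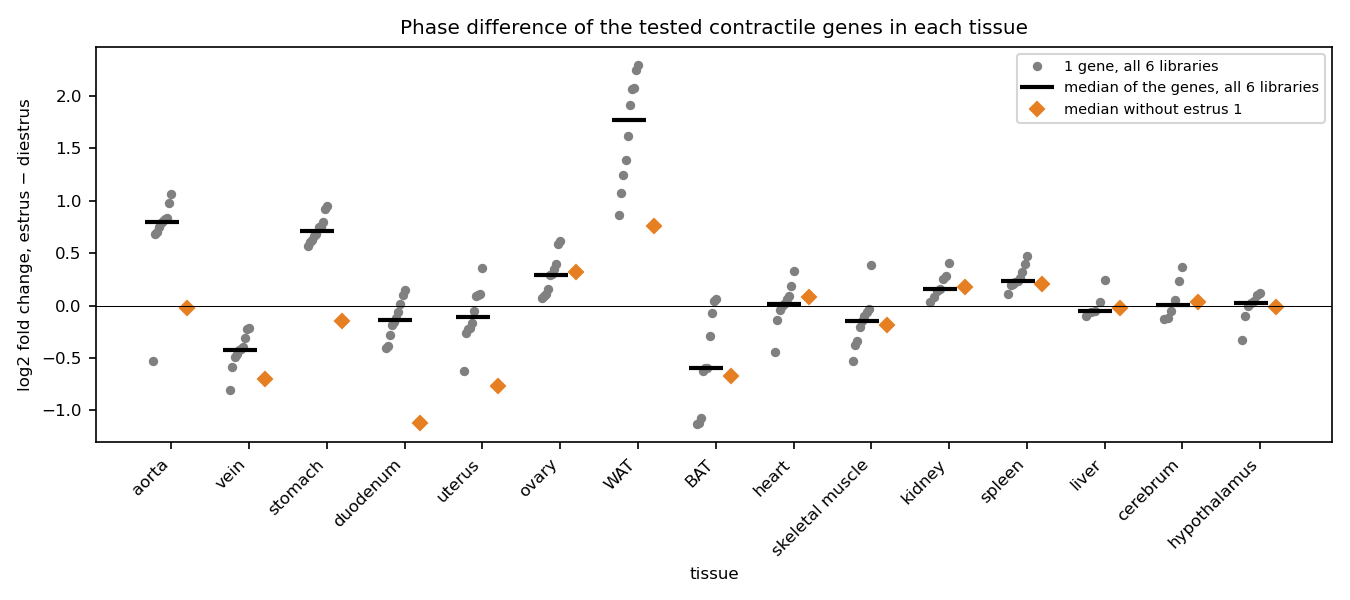
Log2 difference between estrus and diestrus, on the log2(FPKM + 1) scale, for each tested contractile gene in 15 tissues (grey points), their median with all 6 libraries (black bars) and their median without estrus replicate 1 (orange diamonds). The diamond falls below the bar in aorta (-0.02 against 0.80), stomach (-0.14 against 0.72), duodenum (-1.12 against -0.14), uterus (-0.77 against -0.11) and WAT (0.76 against 1.77).

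In WAT, 6 of the 10 contractile genes were higher in all 3 estrus libraries than in any diestrus library, against 9.25% of all genes tested. Acta2 was 685, 66.5 and 77.9 FPKM in estrus and 37.2, 32.4 and 52.3 FPKM in diestrus. Tagln was 1185, 94.5 and 119 FPKM in estrus and 49, 38 and 57.9 FPKM in diestrus. Mylk was 112, 23.9 and 27.9 FPKM in estrus and 18.4, 17 and 16.6 FPKM in diestrus. In each of these the 2 phases were apart even between estrus 2 or 3 and the highest diestrus library, though by a narrow gap beside that of estrus 1. Cnn1 was 183, 23.5 and 13.9 FPKM in estrus and 6.68, 7.7 and 12.2 FPKM in diestrus. Lmod1 was 34.3, 3.53 and 5.56 FPKM in estrus and 2.56, 2.19 and 2.17 FPKM in diestrus. Des was 180, 30.3 and 28.5 FPKM in estrus and 17.7, 18.8 and 24 FPKM in diestrus. For Cnn1, the gap between estrus 3 and diestrus 3 was under 2 FPKM. The log2 differences ran from 1.24 ± 0.52 (SE) for Mylk to 2.30 ± 0.87 for Tagln, with limma adjusted p = 0.79 for all 6. Actg2, Myh11, Smtn and Synpo2 overlapped between the phases, with diestrus 3 above an estrus library. Without estrus 1 the number without overlap was again 6, against 13.7% of all genes, a comparison of 2 libraries with 3. The fibroblast genes summed to 2425, 625 and 989 FPKM in estrus and 536, 451 and 516 FPKM in diestrus, also without overlap, and their part in the contractile values was not tested.

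In duodenum the median was below 0 with and without the library that carried gastric genes, and further below 0 without it. All 10 contractile genes were highest in estrus 1 and lower in estrus 2 and 3 than in any diestrus library. Acta2 was 413, 44.4 and 61.3 FPKM in estrus and 135, 121 and 157 FPKM in diestrus. Actg2 was 513, 37.6 and 39.3 FPKM in estrus and 95.1, 100 and 119 FPKM in diestrus. Mylk was 157, 71.4 and 71.7 FPKM in estrus and 94.7, 97.4 and 122 FPKM in diestrus. With all 6 libraries the phases overlapped for every gene, and the log2 differences ran from -0.40 (Synpo2) to 0.15 (Tagln). Without estrus 1, all 10 were lower in estrus without overlap, against 46.6% of all genes, a comparison of 2 libraries with 3. The differences then ran from -0.53 ± 0.16 (SE) for Mylk to -1.42 ± 0.15 for Actg2, and limma called none, with adjusted p = 0.056 to 0.12. The enterocyte genes summed to 14806 and 13697 FPKM in estrus 2 and 3 and to 5585 to 7727 FPKM in diestrus, and their part in the lower contractile values was not tested.

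The 6 uterus libraries did not separate by phase in any contractile gene. Acta2 was 1293, 467 and 246 FPKM in estrus and 592, 376 and 1155 FPKM in diestrus. Tagln was 1889, 451 and 452 FPKM in estrus and 511, 438 and 817 FPKM in diestrus. Estrus 1 and diestrus 3 were the highest libraries for all 10 genes, and these 2 were also the highest in the fibroblast sum, at 2434 and 1984 FPKM. The log2 differences ran from -0.63 ± 0.71 (SE) for Synpo2 to 0.36 ± 0.58 for Tagln (limma, adjusted p = 0.90 and 0.92). The SE shows that differences of the size of 1 on the log2 scale were not detectable here.

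In vein, diestrus 2 was the highest library for all 10 contractile genes, and estrus 2 the lowest for 9 of them. Acta2 was 1371, 643 and 802 FPKM in estrus and 1315, 2030 and 894 FPKM in diestrus. Des was 49.9, 27.6 and 36.6 FPKM in estrus and 44.8, 59.6 and 29.5 FPKM in diestrus. The phases overlapped for all 10. Synpo2 had the lowest unadjusted p (0.024), with a difference of -0.80 ± 0.28 (SE, log2, limma adjusted p = 0.41). Diestrus 2 was also the highest library in the fibroblast, pericyte and endothelium sums (2027, 410 and 458 FPKM) and the lowest in the white adipocyte sum (1685 FPKM). Estrus 2 was the lowest in the first 3 (681, 159 and 264 FPKM) and the highest in the last (4754 FPKM). Their part in the contractile values was not tested.

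Skeletal muscle, where the contractile genes other than Des and Synpo2 were low, gave the smallest adjusted p-values. Mylk was 4.24, 3.05 and 3.18 FPKM in estrus and 5.36, 5.49 and 5.43 FPKM in diestrus, a difference of -0.53 ± 0.11 (SE, log2, limma adjusted p = 0.098). Acta2 was 24.4, 19.1 and 17.6 FPKM in estrus and 25.6, 26.3 and 27.9 FPKM in diestrus, a difference of -0.38 ± 0.12 (limma, adjusted p = 0.14). Neither gene overlapped between the phases, and Myh11 and Tagln did not overlap either, 4 of the 9 genes tested, against 21.9% of all genes lower in estrus without overlap. Without estrus 1, Mylk (-0.64 ± 0.08, limma adjusted p = 0.013) and Acta2 (-0.51 ± 0.07, limma adjusted p = 0.017) were called as lower in estrus, in a fit of 2 libraries against 3 that called 10.6% of all genes, and 38.7% of all genes were lower in estrus without overlap. Des and Synpo2, which belong to the muscle fibre itself, differed by -0.06 ± 0.08 and -0.04 ± 0.13. The marker sums of other cells were lower in estrus without overlap too: endothelium at 79.3, 65.1 and 52.7 FPKM in estrus and 84.4, 90.3 and 88.0 FPKM in diestrus, pericytes at 130, 118 and 95.0 against 167, 138 and 156 FPKM, and fibroblasts at 306, 251 and 184 against 382, 325 and 383 FPKM. Their part in the differences was not tested.

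In BAT, 5 of the 10 contractile genes (Acta2, Mylk, Tagln, Cnn1 and Smtn) were lower in all estrus libraries than in any diestrus library, against 18.1% of all genes. Tagln was 15.5, 17.4 and 8.54 FPKM in estrus and 29.9, 23.5 and 34.2 FPKM in diestrus, a difference of -1.07 ± 0.29 (SE, log2, limma adjusted p = 0.25). Acta2 was 21.1, 23.1 and 15.7 FPKM in estrus and 29.7, 27.2 and 36.2 FPKM in diestrus, a difference of -0.62 ± 0.19 (limma, adjusted p = 0.29). The lowest estrus value of all 5 came from estrus 3, the library of 0.056M reads, in which Cnn1 and Actg2 are listed at 0. The median difference of the 10 genes was -0.60, and -0.44 without this library. The endothelium genes summed to 178, 201 and 166 FPKM in estrus and 248, 257 and 288 FPKM in diestrus, and the pericyte genes to 137, 143 and 129 against 152, 156 and 192 FPKM, both without overlap. Their part in the differences was not tested.

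Whether the phase difference itself differed between tissues was tested in 7 pairs with an interaction term in limma. None of the 10 contractile genes was called in any pair. Of all genes, 0.102% were called between WAT and BAT, 0.0077% between stomach and duodenum and 0% in the others. The median of the difference over the 10 genes was 2.36 between WAT and BAT, where 4 genes had an unadjusted p under 0.05, and 1.28 between aorta and vein, where none had. The lowest adjusted p in these pairs was 0.27 and 0.70.

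The partners and regulators showed the same lack of calls: limma called 0 genes of the 3 lists in any tissue. In WAT, 16 of 16 contractile partners had a difference above 0, with a median of 0.75, and 14 of 16 without estrus 1, with a median of 0.20. In aorta 16 of 16 were above 0, with a median of 0.71, but 2 of 16 without estrus 1. In vein 0 of 16 were above 0 in either case. Over all genes tested, the share above 0 with all 6 libraries was 63.3% in WAT, 42.6% in aorta, 33.0% in vein and 32.8% in duodenum. In duodenum the partners moved from 9 of 16 above 0 to 0 of 16 without estrus 1.

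Across the 15 tissue means of log2(FPKM + 1), the 10 contractile genes fell into groups by likeness. Myh11 and Tagln were most alike (Pearson r = 0.985), and among 15173 other genes Myh11 was also nearest to Acta2 (r = 0.959) and to Cnn1 (r = 0.976), while Cnn1 was nearest to Actg2 (r = 0.969). Lmod1 was nearest to Myl9 (r = 0.959), Mylk to Lpp (r = 0.930), Smtn to Pard3b (r = 0.931), Synpo2 to Jph2 (r = 0.905), a junction protein of striated muscle, and Des to Card19 (r = 0.905). Synpo2 and Des had r of 0.573 and 0.590 with the mean of the 10 genes, and the others 0.839 to 0.976. Each gene is itself part of that mean, which raises its r. Outside the 10, the genes most like their mean were Myl9 (r = 0.953), Kdelr3 (0.948), Ccl8 (0.903), Srpx (0.899) and Mrvi1 (0.899). These values describe 15 tissues that share libraries between genes, and carry no test.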

How the data were processed

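RNA of 90 tissue samples was extracted with Trizol, made into TruSeq libraries and sequenced on a BGISEQ-500. The authors filtered reads with SOAPnuke, aligned them with Bowtie2 2.2.5 to GRCm38.p5 and estimated abundance with RSEM 1.2.8. They deposited FPKM for 20414 genes, without counts. No source used here names the unit: FPKM was inferred from the values, which do not add up to a common total, and from RSEM, which gives FPKM. Tissue, phase and replicate number came from the sample labels. Symbols were looked up in RefSeq (GRCm38.p6), which named 20265 genes. The 10 genes and all lists were chosen with earlier results of these data known.

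Tests used log2(FPKM + 1), a scale that understates the change of low genes, of genes whose mean in a fit reached 1 FPKM. They were made in R 4.3.3 by limma 3.58.1, with the variance prior following mean expression, Benjamini-Hochberg adjustment within a fit and a limit of 0.05, per tissue for phase, and for pairs of tissues with phase as a covariate or with an interaction term. The fits were tested on simulated data. Per the study, 3 mice per phase gave all 15 tissues, but nothing in the labels ties libraries of different tissues to a mouse, so tests between tissues treat libraries that can share a mouse as independent. Replicate numbers were not used as pairs between the phases, since per the study each phase had its own 3 mice. Within a tissue, libraries of the same number in the 2 phases correlated at r = -0.568 to 0.475. In 0 of 15 tissues were all of these r above 0.1. Values in every library are given for phases without overlap in vessels, gut, uterus and WAT and for the tissue with the highest mean. They are not given for every gene called between tissues. Of the other lists, called genes or the 3 most abundant in aorta, stomach or uterus were to be named, and Pln, Myocd and further tissues were chosen after their values were seen. Protein sequences of the actins were not used here. Alternatives were the pseudocount, the filter, the scale, the trend, one fit of all libraries, the replicate block and left-out libraries. Other computations used Python 3.11.15, numpy 2.4.6, pandas 2.3.3 and matplotlib 3.10.9.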

Additional observations from a re-analysis of the deposited data

How the results depend on the processing

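The count of 0 contractile genes called between the phases held under every alternative in every tissue except skeletal muscle, where 2 were called without estrus replicate 1 and 0 with another library left out. The median phase difference in spleen was 0.076 to 0.49 and in liver -0.071 to 0.088 with 1 library left out. Without estrus replicate 1, the number of genes with a difference above 0 went from 9 to 5 of 10 in aorta, from 10 to 2 in stomach, from 3 to 0 in duodenum and from 4 to 0 in uterus. Among the single differences recomputed under each alternative (the lowest and the highest gene of aorta, vein, stomach, duodenum and uterus, and the genes without overlap in WAT and skeletal muscle), those that changed sign with 1 library left out, with their lowest and highest values, were Des in aorta (-0.87 to 0.10) and vein (-0.47 to 0.023), Cnn1 (-0.36 to 1.81) and Myh11 (-0.0073 to 2.15) in stomach, Synpo2 (-1.19 to 0.10) and Tagln (-1.05 to 0.83) in duodenum, and Synpo2 (-1.40 to 0.058) and Tagln (-0.33 to 0.70) in uterus. Leaving out estrus replicate 1 turned Des in aorta, Cnn1, Myh11 and Tagln, diestrus replicate 2 turned Des in vein, and estrus replicate 2 or 3 turned Synpo2. The log2 ratio of Mylk to Acta2 between uterus and ovary lay between -0.14, without estrus replicate 3, and 0.23. With 1 replicate of 1 phase left out in both tissues, ratio calls were lost 7 times for Mylk, 5 for Lmod1 and 4 for Synpo2. Ratio calls were gained 2 times for Lmod1 and 1 time each for Actg2 and Des.

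Counts of contractile genes called between tissues were less stable, and the cause was not tested. The share of all genes called under each alternative is not given beside these counts, here or above. They describe stability only and are no result about the contractile genes. With the replicate number as a block, 4 were called between stomach and duodenum and 7 between stomach and aorta, and the block changed no other count by over 1.5 times. With the number within a phase as a block, added after the data were seen, the counts were 0 for aorta against vein, 5 for stomach against duodenum and 7 for stomach against aorta. Between tissues, libraries of the same phase and number correlated at r = -0.175 to 0.451. Of 54 such r, 18 were above 0.1, with every r above 0.1 in 0 of 9 pairs of tissues. The labels do not say whether a number marks 1 mouse. In one fit of all libraries the counts were 5 between stomach and duodenum, 7 between stomach and aorta, 4 between uterus and stomach and 3 for the difference of the phase effect between WAT and BAT (Cnn1, Mylk and Tagln). The median ratio scale gave 2 between stomach and duodenum, 1 between uterus and aorta and 0 between uterus and stomach, and without a filter on low values 0 were called between stomach and duodenum and 1 between uterus and stomach. With 1 replicate number left out in both tissues, the counts ran from 0 to 2 for aorta against vein and for stomach against duodenum, from 2 to 6 for stomach against aorta, from 0 to 3 for uterus against aorta, from 0 to 3 for uterus against stomach, from 4 to 8 for uterus against ovary and from 1 to 5 for WAT against BAT. Single libraries left out after their values were seen gave 2 for aorta against vein without aorta estrus replicate 1, 3 for stomach against duodenum without duodenum estrus replicate 1, and 6 or 1 for uterus against stomach without estrus replicate 1 of stomach or of uterus. Without estrus replicate 1, 10 of 10 genes were lower in estrus without overlap in duodenum, against 46.6% of all genes. Depth is known only approximately, and low values in BAT estrus 3 say little.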
